A study of Mus musculus with 16 samples.

Results

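The comparison examined here is the change of protrusion enrichment with Apc siRNA, that is, how the ratio of an RNA between protrusions (Ps) and cell bodies (CB) differed between Apc knockdown and control cells. It used all 16 libraries of the series and all 13015 genes of the deposited table, each with its log2(Diff FC), the log2 Ps/CB ratio of siAPC cells minus the log2 Ps/CB ratio of siControl cells. A negative value means that the RNA was less enriched in protrusions after the knockdown. NIH/3T3 cells, which are mouse embryonic fibroblasts kept as a line, received either control siRNA (siControl) or siRNA against Apc (siAPC). After serum starvation they were plated for 2 h on filters with pores of 3 µm, extended protrusions through the pores toward lysophosphatidic acid (LPA) for 1 h, and were fixed in 0.3% paraformaldehyde for 10 min. Ps came from below the filter and CB from above it, which gave 4 groups of 4 libraries, namely CB and Ps of siControl cells and CB and Ps of siAPC cells. Both siRNAs thus shared the line, the starvation, the pore size and the LPA, and a bulk fraction cannot tell less RNA per protrusion from fewer protrusions that hold it.

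Apc encodes adenomatous polyposis coli, a tumor suppressor that takes part in the destruction of beta-catenin and also binds microtubules, with a concentration at their plus ends near the cell edge. Some RNAs accumulate at the tips of protrusions of migrating cells, where they can be translated locally, and several of these associate with APC. GA-rich stretches in the 3′ untranslated region (3′ UTR) are known from such RNAs. Ribosomal protein RNAs also accumulate in protrusions, and RNAs for membrane and secreted proteins are translated at the endoplasmic reticulum (ER), most of which lies in the cell body.

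Reads in listed genes ranged from 13466225 to 20296087 per library, and Apc was itself measured at low depth. In CB its log2 CPM was 2.13, 2.59, 3.54 and 2.17 in siControl replicates 1 to 4 and 0.54, 1.42, 1.02 and 0.75 in siAPC. In Ps it was 3.52, 3.73, 3.29 and 3.56 in siControl and 1.63, 1.90, 1.87 and 1.33 in siAPC, so that every siAPC library lay below every siControl library of its fraction. The Apc level fell by 1.67 in CB (SE 0.25, limma adjusted p = 1.42e-04) and by 1.84 in Ps (SE 0.25, adjusted p = 3.11e-05). Its own log2(Diff FC) was -0.17 (SE 0.36, adjusted p = 0.982), with a 95% interval from -0.92 to 0.58. It was between -0.48, without siControl CB replicate 3, and -0.01, without siControl CB replicate 1 or siAPC CB replicate 2, when single libraries were left out. Several library measures bear on what follows. Deviations from the group mean decreased with gene GC content in 1 library of every group, replicate 3 in siControl CB and replicate 2 elsewhere (Spearman correlations between -0.645 and -0.524 across 10238 genes). The scaling ratio between effective and listed library size was 0.801 to 0.908 in siControl Ps and 0.968 to 0.995 in siAPC Ps (exact two-sided permutation p = 0.0286, which is as low as 4 against 4 can go). Ribosomal protein genes held a share of Ps reads of 21.7% to 26% in siControl and 19.8% to 20.7% in siAPC, and of CB reads of 11.7% to 13.1% and 10.6% to 10.8% (exact permutation p = 0.0286 in each fraction), and mitochondrial genes a share of Ps reads of 2.65% to 4.16% and 2.18% to 2.86% (exact permutation p = 0.0857). The share of the nuclear RNAs Malat1 and Neat1 in Ps, which would carry nuclear material, was 0.0181% ± 0.00782 (SD, n = 4) in siControl and 0.0172% ± 0.00711 (SD, n = 4) in siAPC (exact permutation p = 0.886). In CB it was 0.0775% ± 0.017 (SD, n = 4) and 0.055% ± 0.00691 (SD, n = 4), with no overlap (exact permutation p = 0.0286), and its part in the ratios was not tested.

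Across all genes, few RNAs changed their enrichment by more than the spread between libraries in the reported fit, which used no block or covariate. By limma with Benjamini-Hochberg adjustment, 3 genes were lower at an adjusted p below 0.05 (0.0231% of all genes) and 0 were higher (0%), and the same test with voom weights gave 2 lower and 0 higher. At an unadjusted p below 0.05, 223 genes were lower (1.71%) and 269 were higher (2.07%), together fewer than the 651 that this threshold alone would pass. At an unadjusted p below 0.01, 58 were lower (0.446%) and 46 higher (0.353%). Without siControl Ps replicate 2 the unadjusted counts at 0.05 were 499 lower and 445 higher, and without the 4 libraries that fell with GC content they were 366 and 450. With the GC slope of each library as a covariate, 22 were lower and 6 higher at the adjusted threshold, and 637 and 685 at the unadjusted one. Adding a replicate block for siRNA and number gave 160 and 137, and 1140 and 1104 without adjustment. The split between the directions also depended on scaling. When libraries were scaled by their total listed reads, the median log2(Diff FC) of all genes moved from 0.00 to 0.15 and 57 genes were lower and 1320 higher, that is 4.14% lower among those called against 45.3% with the deposited scaling.

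The precision depended on the level of the RNA. The median SE of log2(Diff FC) was 0.53 for 2723 genes with a mean log2 CPM below 1, where a library held 12 reads in the median, and 0.10 for 1354 genes above 7, where it held 4050. Among the most abundant genes (mean above 7), 62 were lower and 8 higher at an unadjusted p below 0.05. Among those with a mean below 1, 36 were lower and 81 higher. The abundant end of the table thus held mostly lower calls and the scarce end mostly higher calls.

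**Figure D1:**
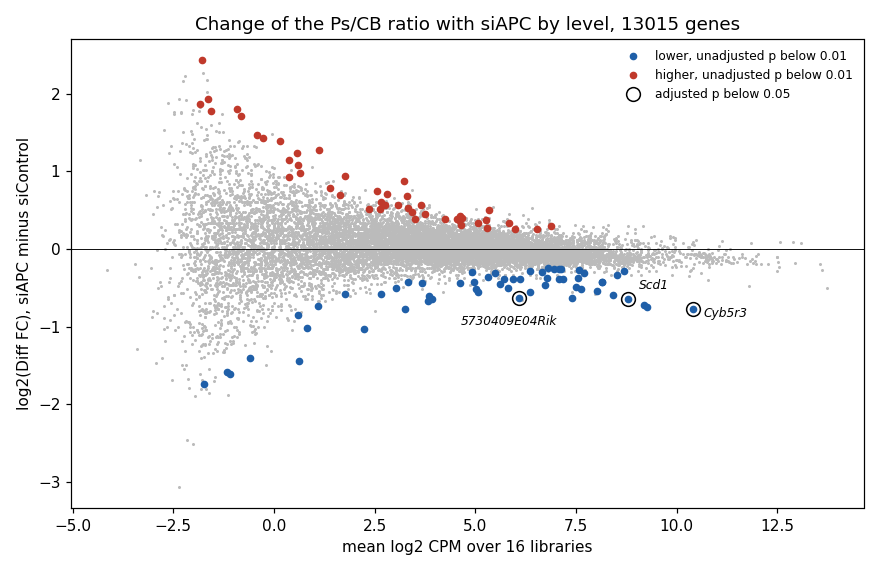
Each point is 1 of 13015 genes, with the mean log2 CPM over 16 libraries on the horizontal axis and log2(Diff FC), siAPC minus siControl, on the vertical axis; blue and red mark unadjusted p below 0.01 (58 lower, 46 higher) and circles mark the 3 genes at adjusted p below 0.05. The scatter narrows from left to right, and the circled genes lie below 0 at means of 6.09, 8.80 and 10.40.

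The 3 genes that passed the adjusted threshold all became less enriched in protrusions: Scd1, which encodes stearoyl-CoA desaturase, the enzyme that introduces a double bond into fatty acids; Cyb5r3, which encodes a cytochrome b5 reductase that supplies electrons to lipid desaturation; and 5730409E04Rik, a protein-coding gene. Scd1 lies on chr19:44394455-44407879 (minus strand), Cyb5r3 on chr15:83153494-83172592 (minus strand) and 5730409E04Rik on chr4:126609818-126614371 (plus strand), all in GRCm38. Each stayed enriched in Ps in both siRNAs, at a smaller ratio in siAPC.

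The log2 CPM of Scd1 in CB was 8.10, 8.07, 7.95 and 8.0 in siControl and 8.08, 8.10, 8.06 and 8.09 in siAPC. In Ps it was 10.00, 9.96, 9.76 and 9.62 in siControl and 9.16, 9.23, 9.31 and 9.31 in siAPC. The CB libraries overlapped between the siRNAs, whereas every siAPC Ps library lay below every siControl Ps library. The Ps/CB ratio was 3.5-fold in siControl and 2.25-fold in siAPC, and log2(Diff FC) was -0.64 (SE 0.10, adjusted p = 0.0433).

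For Cyb5r3 the CB values were 8.93, 8.85, 8.71 and 8.75 in siControl and 9.0, 8.92, 8.75 and 8.78 in siAPC. The Ps values were 12.50, 12.14, 12.39 and 12.24 in siControl and 11.58, 11.36, 11.75 and 11.66 in siAPC, again with no overlap in Ps and overlapping values in CB. The enrichment went from 11.4-fold to 6.62-fold, a log2(Diff FC) of -0.78 (SE 0.13, adjusted p = 0.0433). Behind these values stood 7750 to 11063 reads per CB library and 39041 to 81241 reads per Ps library.

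5730409E04Rik had CB values of 5.04, 5.01, 4.83 and 4.86 in siControl and 5.10, 4.99, 5.00 and 5.05 in siAPC. Its Ps values were 7.41, 7.36, 7.57 and 7.46 in siControl and 6.81, 6.78, 7.06 and 7.03 in siAPC. As for the other two, the groups separated in Ps and overlapped in CB. The enrichment went from 5.72-fold to 3.69-fold, a log2(Diff FC) of -0.63 (SE 0.10, adjusted p = 0.0433).

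These 3 calls sat close to the threshold. Scd1 passed it in 12 of 28 alternative analyses, Cyb5r3 in 9 and 5730409E04Rik in 8. Leaving out any of 12 of the 16 libraries ended all 3 calls, with adjusted p up to 0.178. The exceptions were siAPC Ps replicate 3, siControl CB replicate 1 and siControl Ps replicate 2, without which all 3 passed, and siControl Ps replicate 4, without which Scd1 passed. A replicate block for siRNA and number kept the call of Scd1 and ended those of Cyb5r3 and 5730409E04Rik. Their direction did not turn in any of the 28, and the highest unadjusted p was 1.22e-04 for Scd1, 1.11e-04 for Cyb5r3 and 1.68e-04 for 5730409E04Rik.

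Below the adjusted threshold, several genes had values of similar or larger size with wider errors. Kif1c, a kinesin that carries cargo toward microtubule plus ends, had Ps values of 10.51, 10.16, 10.56 and 10.38 in siControl and 9.76, 9.51, 10.04 and 9.98 in siAPC. Its CB values were 8.45, 8.40, 8.14 and 8.29 in siControl and 8.54, 8.45, 8.51 and 8.48 in siAPC. The Ps groups did not overlap and the CB groups touched at 8.45, and log2(Diff FC) was -0.75 (SE 0.15, adjusted p = 0.133). For Kank2, an adaptor of talin and cortical microtubules at adhesions, the Ps values were 8.54, 8.36, 8.63 and 8.48 in siControl and 7.94, 7.89, 8.27 and 8.25 in siAPC. Its CB values were 6.47, 6.41, 6.27 and 6.45 against 6.60, 6.60, 6.65 and 6.62, so that the groups separated in both fractions and in opposite directions. Its log2(Diff FC) was -0.63 (SE 0.12, adjusted p = 0.0835).

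Net1, a nucleotide exchange factor for the GTPase RhoA, had Ps values of 4.68, 4.50, 4.73 and 4.63 in siControl and 3.56, 3.88, 4.23 and 3.87 in siAPC, from 184 to 403 reads. Its CB values, between 2.10 and 2.43 in all 8 libraries, overlapped, and log2(Diff FC) was -0.77 (SE 0.17, adjusted p = 0.219). Snx29, a sorting nexin, had the lowest value among the named genes, -1.03 (SE 0.22, adjusted p = 0.213). It was near even between fractions, at a ratio of 1.41-fold in siControl and 0.694-fold in siAPC, so that its change was not a loss from a strongly enriched state.

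The other genes of the lowest 12 were Cenpb, a centromere protein, at -0.72 (SE 0.15), Cenpu at -0.74 (SE 0.25), Palld, an actin-binding protein of stress fibers, at -0.67 (SE 0.23), Cplx2, a regulator of vesicle fusion, at -0.65 (SE 0.16), and Rassf3 at -0.61 (SE 0.18). Their adjusted p values were between 0.18 and 0.981. In all of these the sign was the same in 4 of 4 differences between libraries of the same number, which the rule required.

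Among the 8 highest, 2810008D09Rik, a long intergenic noncoding RNA on chr11:117076008-117078955 (plus strand, GRCm38), had the smallest p. Its CB values were 3.67, 3.74, 3.80 and 3.92 in siControl and 3.65, 3.40, 3.62 and 3.44 in siAPC. Its Ps values were 2.54, 2.4, 2.46 and 2.47 in siControl and 3.42, 3.17, 2.70 and 3.07 in siAPC. It was depleted from protrusions in both siRNAs and less so in siAPC, with log2(Diff FC) of 0.88 (SE 0.18, adjusted p = 0.145) and 64 to 323 reads per library. Tcf4, a helix-loop-helix transcription factor that is distinct from the Wnt effector once given that name, had a value of 0.68 (SE 0.18, adjusted p = 0.723), with a higher level in Ps by 0.94. Golga1, a golgin of the trans-Golgi, reached 0.75 (SE 0.20, adjusted p = 0.708) through its CB level, which fell by 0.69 (SE 0.14, adjusted p = 0.00231), while its Ps level differed by 0.06.

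The other highest genes were Cercam at 1.27 (SE 0.40), Tnfrsf25 at 0.94 (SE 0.28), 2900052L18Rik at 0.78 (SE 0.27), AI480526 at 0.71 (SE 0.23) and Duox2 at 0.70 (SE 0.23). They rested on few reads in siControl Ps, 4 to 19 for Cercam and 7 to 17 for Tnfrsf25. All 5 were depleted from protrusions in both siRNAs.

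**Figure D2:**
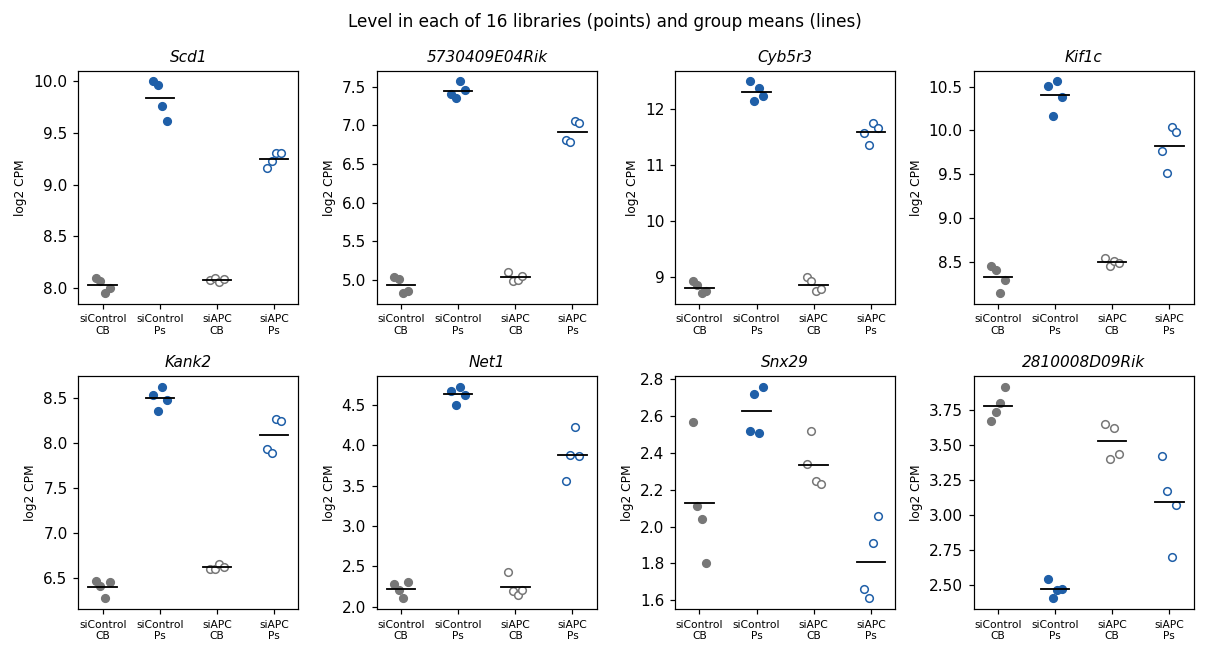
Log2 CPM of 8 named genes in each of the 16 libraries; filled points are siControl, open points siAPC, grey CB and blue Ps, lines are means of 4 libraries, and each panel has its own vertical range. In Scd1, 5730409E04Rik, Cyb5r3, Kif1c, Kank2, Net1 and Snx29 the siAPC Ps libraries lie below the siControl Ps libraries, and in 2810008D09Rik above them, at 2.70 to 3.42 against 2.4 to 2.54.

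The values were next divided by fraction, to see whether a changed ratio came with a changed level in Ps or in CB. For the 58 lower genes at an unadjusted p below 0.01 the median level change with siAPC was -0.45 in Ps and 0.06 in CB. Of them, 46 were lower in Ps at an adjusted p below 0.05, against 11.2% of all genes, and 10 were higher in CB, against 7.52% of all genes, while 3 were lower in CB, against 5.87%. For the 46 higher genes the medians were 0.50 in Ps and -0.14 in CB, and 32 were higher in Ps, against 10.7% of all genes. The Ps libraries enter log2(Diff FC), so these shares describe the genes and are not a separate test.

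Most named genes followed the Ps pattern, but several did not. Dynll2, a light chain of dynein, was higher in CB by 0.34 (SE 0.08, adjusted p = 0.00466) and differed in Ps by -0.15 (SE 0.08, adjusted p = 0.182). Palld rose in CB by 1.08 (SE 0.16, adjusted p = 1.32e-04) and had a Ps change of 0.42 (SE 0.16, adjusted p = 0.0782). Cenpu rose in CB by 0.69 (SE 0.17, adjusted p = 0.0115) with a Ps change of -0.04. In these 3 the lower ratio therefore came with more RNA in the cell body and not with a called loss from Ps.

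**Figure D3:**
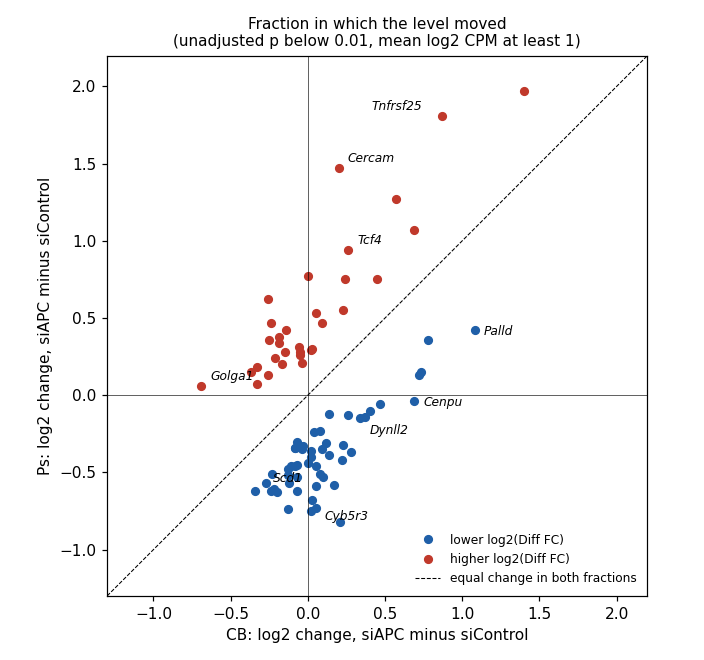
Log2 change with siAPC in CB (horizontal) and in Ps (vertical) for genes with unadjusted p below 0.01 and a mean log2 CPM of at least 1; blue points have lower and red points higher log2(Diff FC), and the dashed line marks equal change in both fractions. Scd1 and Cyb5r3 lie near 0 in CB and below 0 in Ps, whereas Palld, Cenpu and Golga1 are displaced along CB.

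The relation to enrichment itself was described with the mean log2 Ps/CB ratio over both siRNAs, which weights them equally, among 10292 genes with a mean log2 CPM of at least 1. Of 115 genes with a mean ratio above 1.5, 12 were lower (10.4%) and 0 higher at an unadjusted p below 0.05. These were Cyb5r3, Kank2, Kif1c, Cenpb, Dynll2, Net1, Cplx2, Rab13 and 5730409E04Rik, and 3 more named after their values were seen: Trp53inp2 at -0.52 (SE 0.12), Zbtb12 at -0.55 (SE 0.15) and Fgd3 at -0.38 (SE 0.15). The classes of RNA in this bin were counted apart, with no test between them. Of 55 genes that were neither ribosomal nor mitochondrial and had no name of a predicted gene or pseudogene, 12 were lower (21.8%), against 0 of 8 ribosomal protein genes, 0 of 5 mitochondrial genes and 0 of 47 with a name of a predicted gene or pseudogene. The ribosomal and mitochondrial genes of the bin were nevertheless negative in 8 of 8 and 5 of 5, with medians of -0.06 and -0.34, beside -0.04 for the 55. The count in the bin was 11 to 18 lower in all 28 alternatives, while the share of all genes that was lower went from 0.438% with total scaling (11 in the bin) to 8.76% with a replicate block and a GC covariate (18 in the bin). The count of higher genes was 0 to 7, and the 7 (6.09% of the bin) came in that last fit, where 8.48% of all genes were higher.

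At the other end, of 493 genes with a mean ratio below -1, 39 were higher (7.91%) and 1 was lower (0.203%). Their median log2(Diff FC) was 0.10, and 24.9% of them were negative, against 50% of all genes with a mean of at least 1. Between these ends the share of higher genes decreased from bin to bin, 3.62% for ratios from -1 to -0.5, 1.49% from -0.5 to 0 and 0.924% from 0 to 0.5, and the share of lower genes increased, from 0.689% to 1.59% and 2.05%. The 39 included Slc26a11, Slc8b1, Tnfrsf25, Cercam and AI480526. They also included genes for cell surface proteins that were picked after their values were seen: the frizzled Wnt receptors Fzd1 at 0.40 (SE 0.19), Fzd2 at 0.26 (SE 0.11) and Fzd7 at 0.23 (SE 0.10), Notch2 at 0.25 (SE 0.09) and the chemokine receptor Ackr3 at 0.30 (SE 0.08). The count of higher genes was 72 without siControl CB replicate 3 (2.91% of all genes), 23 without siAPC CB replicate 2 (2.17%), 25 without siControl CB replicate 4 (1.72%) and 64 without the 4 libraries that fell with GC content (3.46%). It was 91 with array weights, which down-weight libraries that deviate (5.8% of all genes), 150 with total scaling (10.1%) and 116 with a replicate block and a GC covariate (8.48%). Beside these, 12 of the 493 were lower with array weights, 0 with total scaling and 15 with the block and covariate.

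**Figure D4:**
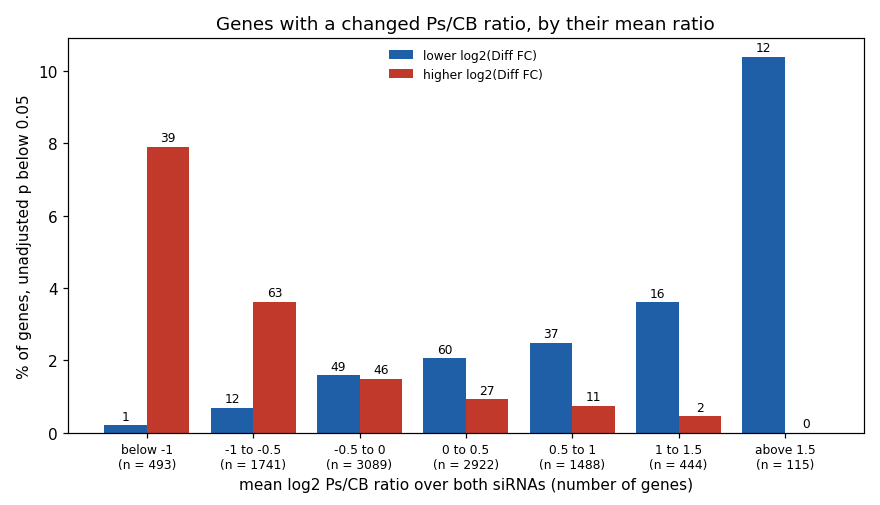
Share of genes with lower (blue) or higher (red) log2(Diff FC) at unadjusted p below 0.05, in bins of the mean log2 Ps/CB ratio over both siRNAs, for genes with a mean log2 CPM of at least 1; numbers above bars are genes. Blue bars grow from 0.203% to 10.4% from left to right and red bars shrink from 7.91% to 0%.

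The 5 RNAs that the study used as localized examples, Rab13, Pkp4, Ddr2, Kank2 and Cyb5r3, were all negative, and 4 of 5 were below 0.05 without adjustment. Pkp4, Rab13, Ddr2 and Kank2 were tied to APC in earlier work of the study's authors. The study also names Cyb5r3 as APC-dependent, a group that it defined by cutoffs on log2(Diff FC) and p from its RNA-Seq of these siRNAs. For selected RNAs of that group it further reported reduced enrichment by nanoString, with similar results from siRNAs to another region of Apc. How Cyb5r3 was picked as an example is not given in the sources used here. The count is therefore a description of known examples and not a separate test. Rab13, a small GTPase of membrane traffic, had Ps values of 6.62, 6.41, 6.20 and 6.09 in siControl and 5.98, 5.95, 6.01 and 6.0 in siAPC, with CB values that overlapped. Its log2(Diff FC) was -0.43 (SE 0.14, adjusted p = 0.981), and it kept a Ps/CB ratio of 4.43-fold against 5.98-fold. Pkp4, a plakophilin of cell junctions, was at -0.36 (SE 0.10, adjusted p = 0.949) and Ddr2, a collagen receptor kinase, at -0.40 (SE 0.20, adjusted p = 0.981). That of Ddr2 was between -0.60 and -0.29 when single libraries were left out. Its CB values in siControl were 6.45, 6.37, 7.31 and 6.68. The diffuse controls Arpc3, a subunit of the Arp2/3 complex, and Rhoa, the GTPase, had values of -0.09 (SE 0.09) and -0.04 (SE 0.09), which turned to 0.05 and 0.11 with scaling by total reads, less than the 0.15 of all genes, and to 0.00 for Arpc3 with array weights and 0.05 for Rhoa with quantile normalization. Their 95% intervals were -0.28 to 0.10 and -0.22 to 0.14.

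Letters of GA-rich motifs in the 3′ UTR were examined as a feature that the contrast did not use. The motifs were GAAGAA or GAAGAG or GAAGGA or GAAGGG, on the sense strand only, with overlaps counted. The stretches below are the 30 bases with most of these motifs in the 3′ UTR of the 5 localized RNAs, of the other lower genes at adjusted p below 0.05, of Kif1c and Cplx2, which were picked after their letters were seen, and of the 2 diffuse controls. Capitals mark the motifs, and each is given 5′ to 3′ on the strand of the gene from GENCODE M21 (GRCm38).
Rab13: aGAAGGGatttgaGAAGAGgaaagGAAGAA
Pkp4: gaaagtgaaatgGAAGGGatgagtGAAGAG
Ddr2: atactagctGAAGAActctgcaggGAAGAG
Kank2: tatgggaggagGAAGGGggggcaaGAAGAG
Cyb5r3: cctggcaaGAAGGAgtttcagtggGAAGGA
Kif1c: gagtgtgctggaggctgaggGAAGGAAGAG
5730409E04Rik: ggagGAAGGAAGGAAGGAAGGAAGGAAGGG
Cplx2: GAAGAAGAAGAAGAAGAAGAAGAAGAAGAA
Scd1: tggtatgatttgtaagtaaagatgGAAGAG
Arpc3: ttcatacctaccgtatcaaggagaGAAGAG
Rhoa: tgtatttggaaataaagtcagatgGAAGAA

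These stretches lie at chr3:90225776-90225805 for Rab13, chr2:59354537-59354566 for Pkp4, chr1:169976594-169976623 for Ddr2, chr9:21768634-21768663 for Kank2 and chr15:83157607-83157636 for Cyb5r3. Those of the other genes lie at chr11:70729028-70729057 for Kif1c, chr4:126613527-126613556 for 5730409E04Rik, chr13:54380122-54380151 for Cplx2, chr19:44397219-44397248 for Scd1, chr5:122405995-122406024 for Arpc3 and chr9:108337545-108337574 for Rhoa. The stretch of Rab13 holds 3 motifs, those of Pkp4, Ddr2, Kank2, Cyb5r3 and Kif1c hold 2 each, and those of Scd1, Arpc3 and Rhoa hold 1. A longer 3′ UTR offers more stretches to choose from, so these maxima do not compare motif density between genes. The whole 3′ UTR held 5 motifs in 386 bases in Rab13, 4 in 757 in Pkp4 and 16 in 5548 in Ddr2. It held 4 in 2167 in Kank2, 6 in 1484 in Cyb5r3 and 4 in 1545 in Kif1c. For Scd1 it was 8 in 3464, for Arpc3 1 in 248 and for Rhoa 1 in 1113. The stretches of 5730409E04Rik, with 6, and Cplx2, with 9, are simple repeats. Of the other genes among the 12 lowest, the richest stretch held 3 motifs in Palld and 1 each in Cenpb, Cenpu and Rassf3, while Net1 had none in an annotated 3′ UTR of 737 bases and Snx29 none in 146 bases.

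Over 9029 genes with an annotated 3′ UTR of at least 300 bases, the motifs occurred 1.69 times per kilobase when all were pooled. In the 42 such genes among those lower at an unadjusted p below 0.01 the pooled density was 2.73, and 2.31 without Cplx2, which held 50 of their 260 motifs. In the 35 such genes among the higher ones it was 1.57. The medians per gene were 1.47 for all, 1.89 for the lower and 1.16 for the higher genes. The share of genes with at least 1 motif in the first 300 bases after the stop codon was 40.5% for all, 38.1% for the lower and 42.9% for the higher genes, so the sets did not separate by that measure. Of 499 genes with a mean ratio above 1 that encode no cytoplasmic ribosomal protein, 255 had such a 3′ UTR, and their pooled density was 1.78 with a median per gene of 1.36.

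The function lists were described by the members below the unadjusted threshold of 0.05 and by the median log2(Diff FC), beside 1.71% lower, 2.07% higher and a median of 0.00 for all genes. The solute carriers, transporters in the plasma and organelle membranes, had the most members higher: 18 of 188 (9.57%) were higher and 0 lower, with a median of 0.07. They were mostly depleted from Ps, with a median log2 Ps/CB ratio of -0.65 in siControl. Depleted genes of any function also had more higher than lower calls. At mean ratios from -1 to -0.5, 3.62% were higher and 0.689% lower, and below -1, 7.91% and 0.203%. The solute carriers were not compared with genes of matched ratio. Slc26a11, a sulfate transporter of this family, had CB values of 4.04, 3.96, 4.07 and 4.10 in siControl and 4.07, 3.89, 4.26 and 4.15 in siAPC. Its Ps values were 2.56, 2.38, 2.49 and 2.66 in siControl and 3.03, 3.05, 3.08 and 3.05 in siAPC, and log2(Diff FC) was 0.48 (SE 0.13, adjusted p = 0.789). Slc8b1, a mitochondrial sodium-calcium exchanger, was at 0.29 (SE 0.10, adjusted p = 0.981). The 18 also held amino acid transporters picked after their values were seen, Slc38a1 at 0.21 (SE 0.09), Slc38a2 at 0.37 (SE 0.14) and Slc1a5 at 0.23 (SE 0.09), all depleted from Ps in both siRNAs. With total scaling 50 were higher, beside 10.1% of all genes, and without the 4 libraries that fell with GC content 16 were higher, beside 3.46%.

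The lists of ER factors, of receptor tyrosine kinases and of collagens and matrix genes had positive medians with few or no calls. That of integrins and focal adhesion proteins, which include membrane receptors, had a median of -0.03. ER translocation and folding factors had 34 of 42 positive members, a median of 0.10 and 0 calls in either direction, with 7 higher under quantile normalization (2.47% of all genes), 10 under array weights (5.8%), 20 under total scaling (10.1%) and 14 with a replicate block and a GC covariate (8.48%). Without siAPC Ps replicate 2 the median was 0.06, with 30 of 42 positive. Among them Uggt1, which senses misfolded glycoproteins, was at 0.23 (SE 0.12) and Pdia3, a disulfide isomerase, at 0.31 (SE 0.17). Receptor tyrosine kinases had 19 of 26 positive members and a median of 0.18, with 0 calls and a value of 0.55 (SE 0.27) for Ror1. That median was 0.06 with array weights and 0.07 without the 4 libraries that fell with GC content. Collagens and matrix genes had 1 of 64 lower, Thbs1 at -0.36 (SE 0.17), and 1 higher, Efemp1 at 0.25 (SE 0.12).

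Sterol and fatty acid synthesis held 2 of the 3 genes that passed the adjusted threshold. Of 47 members, 4 were lower at the unadjusted threshold (8.51%): Scd1, Cyb5r3, Acaca at -0.26 (SE 0.11) and Fads2 at -0.30 (SE 0.14). Acaca makes malonyl-CoA for fatty acids and Fads2 is another desaturase. The other 2 called, both higher, were Cyb5b at 0.26 (SE 0.11) and Sc5d, a sterol desaturase, at 0.39 (SE 0.19). The median was -0.01. Acaca, Fads2, Cyb5b and Sc5d were named after their values were seen.

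Among genes for transport along microtubules, 5 of 60 motor, dynein and dynactin genes were lower (8.33%) and 3 higher (5.00%), with a median of -0.00. The lower ones were Kif1c, Dynll2 at -0.49 (SE 0.11, adjusted p = 0.219), Kif7 at -0.30 (SE 0.13), Dynlt1a at -0.27 (SE 0.12) and Dync1li2 at -0.21 (SE 0.08). Bicd2, an adaptor of dynein, was among the higher at 0.33 (SE 0.10). So were the scarce kinesins Kif15 at 1.18 (SE 0.51, mean log2 CPM -0.62) and Kif20b at 1.91 (SE 0.81, mean -1.62). Kif7, Dynlt1a, Dync1li2, Bicd2, Kif15 and Kif20b were named after their values were seen. Among the 52 members with a mean of at least 1, 5 were lower and 1 higher, beside 1.82% and 1.87% of all such genes. When single libraries were left out, 3 to 6 of the list were lower and 1 to 3 higher. Of 39 plus-end and tubulin modifying factors, 3 were lower, among them the microtubule-associated proteins Map4 at -0.42 (SE 0.08, adjusted p = 0.145) and Map1a at -0.30 (SE 0.11, adjusted p = 0.981). Map4 had Ps values of 8.53, 8.49, 8.72 and 8.59 in siControl and 8.17, 8.11, 8.27 and 8.19 in siAPC, and in CB all 8 libraries lay between 7.83 and 7.99. Of 14 tubulin genes 12 were negative, with a median of -0.15, and 1, Tubb2a at -0.24 (SE 0.11), was below 0.05. The tubulin median was -0.01 with total scaling, beside 0.15 for all genes. RNA transport granule proteins had 0 of 41 called and a median of 0.06, which was between 0.01 and 0.11 when single libraries were left out.

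Genes for the machinery of protrusions had few calls, nearly all lower. Of 47 Rab GTPases, 2 were lower (4.26%), including Rab13, and 1 was higher (2.13%). Of 61 actin and contractile genes, 3 were lower (4.92%) and 0 higher. These were Palld, Myh9, the heavy chain of nonmuscle myosin II, at -0.35 (SE 0.12), and Flna, a filamin, at -0.34 (SE 0.12). Flna was named after its value was seen. Of 47 integrin and focal adhesion genes, 3 were lower (6.38%) and 0 higher, including Kank2 and Ppfia1, a liprin, at -0.39 (SE 0.17). Abundant genes of any function leaned the same way, with 62 of 1354 lower and 8 higher above a mean log2 CPM of 7. Myh9 (10.31) and Kank2 (7.40) were at that level, and Ppfia1 (5.70), Rab13 (4.97) and Palld (3.82) were below it. The lists were not compared with genes of matched level.

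RNAs of the mitochondrial genome were negative in 11 of 11, and in 10 of 11 with total scaling, with a median of -0.48, and 3 were lower at the unadjusted threshold. The median was -0.31 for the 8 with a mean log2 CPM of at least 1, -0.28 with log2(CPM + 1), -0.31 without siAPC CB replicate 4, and -0.66 with 7 lower without the 4 libraries that fell with GC content. Without siControl CB replicate 3 alone 6 were lower, and without siAPC Ps replicate 4, 9 of 11 were negative and 2 lower. mt-Co1, a subunit of cytochrome oxidase, had Ps values of 15.05, 14.34, 14.47 and 14.20 in siControl and 14.08, 13.98, 13.90 and 13.69 in siAPC, with log2(Diff FC) of -0.50 (SE 0.20, adjusted p = 0.981). It reversed to 0.39 with quantile normalization (limma adjusted p = 0.0262, past the threshold in the opposite direction), under which 9 of 11 were negative and the median was -0.22. mt-Nd6, at a lower level, was at -0.80 (SE 0.29). Replicate 1 of siControl Ps held the highest mt-Co1 value and the highest mitochondrial share, 4.16%, and without that library log2(Diff FC) of mt-Co1 was -0.33 and the median of the list -0.30.

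Cytoplasmic ribosomal protein RNAs had 77 of 79 negative values and a median of -0.10 but 0 calls, and the sign of the median depended on the scaling. It was 0.10 with quantile normalization, under which 22 were higher (2.47% of all genes) and 1 lower, and 0.04 with array weights. With total scaling it was 0.04, below the 0.15 of all genes. It was between -0.15 and -0.01 when single libraries were left out, -0.01 being without siControl Ps replicate 1, and -0.10 with a replicate block and a GC covariate, under which 17 were lower (8.76% of all genes) and 0 higher. Rps3 was at -0.19 (SE 0.11), or 0.01 with quantile normalization, and Rpl15 at -0.24 (SE 0.13). Their levels were lower in Ps at an adjusted p below 0.05 for 69 of 79 and in CB for 23, beside 11.2% and 5.87% of all genes. Nuclear-encoded respiratory chain genes had 72 of 78 negative and a median of -0.09, which was 0.01 with array weights. With total scaling it was 0.05, below the 0.15 of all genes. They had 2 calls, beside 13 lower with the GC covariate (4.89% of all genes) and 27 lower with that and a replicate block (8.76%). The median was -0.02 with 49 of 78 negative without siControl CB replicate 3 and -0.05 with 55 negative without siControl Ps replicate 1. When single libraries were left out 0 to 9 were lower, with 9 without siControl Ps replicate 2, 7 without siControl CB replicate 1, and 0 without siAPC CB replicate 1, siControl CB replicate 3 or siControl Ps replicate 3. The 2 were Cox6a1 at -0.23 (SE 0.10) and Atp5a1 at -0.21 (SE 0.09). Translation factors had 3 of 52 lower, among them Pabpc4, a poly(A)-binding protein, at -0.28 (SE 0.10) and Eif4b at -0.23 (SE 0.08), which was 0.01 with quantile normalization. Mitochondrial ribosomal proteins had 1 of 76 lower, Mrpl24 at -0.26 (SE 0.12).

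Wnt feedback genes, which are known to respond to loss of APC, were described in the same way. Of 20 such genes, 11 were higher in Ps and 9 in CB at an adjusted p below 0.05, beside 10.7% and 7.52% of all genes, while 0 were called for log2(Diff FC), with a median of 0.05. That median was between -0.01 and 0.10 when single libraries were left out. Wisp1, a secreted Wnt target, rose by 0.98 in Ps (SE 0.13, adjusted p = 1.45e-05) and by 0.63 in CB (SE 0.13, adjusted p = 0.00198), with log2(Diff FC) of 0.35 (SE 0.18, adjusted p = 0.981). Twist1 was at 0.22 (SE 0.12). Of 106 DNA replication and mitosis genes, 53 were higher in Ps and 47 in CB, beside the same shares of all genes, and 3 were lower and 0 higher for log2(Diff FC), including Cenpb and Cenpu. In the beta-catenin destruction complex, 1 of 13 was lower, Ctnnb1 (beta-catenin) at -0.22 (SE 0.08), with a ratio of 1.04-fold in siControl and 0.891-fold in siAPC.

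The remaining lists had 2 or fewer calls in a direction. Numbered zinc finger genes were positive in 176 of 263 with a median of 0.11, which was 0.03 without siControl CB replicate 3 and 0.04 with array weights, and 2 were lower, Zfp593 at -0.24 (SE 0.11) and Zfp651 at -0.34 (SE 0.16), and 2 higher. Splicing factors had 2 of 87 lower, including Rbm17 at -0.27 (SE 0.10), and 1 higher, Luc7l at 0.24 (SE 0.11). Glycolysis and citric acid cycle genes were negative in 36 of 41, with a median of -0.09 that was -0.01 with array weights. With total scaling it was 0.05, below the 0.15 of all genes. Of them 1, Pgk1 at -0.22 (SE 0.10), was lower with the deposited scaling and at 0.03 with quantile normalization. Proteasome subunits, immediate early genes and histones had 0 calls, and interferon-stimulated genes had 2 of 53 higher. Long noncoding RNAs listed as nuclear had 1 of 15 higher, Snhg3 with log2(Diff FC) of 0.57 (SE 0.23). As a set these were not depleted from Ps, with a median log2 Ps/CB ratio of 0.57 in siControl. That ratio was 2.01 for Gas5 and -1.07 for Snhg3.

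**Figure D5:**
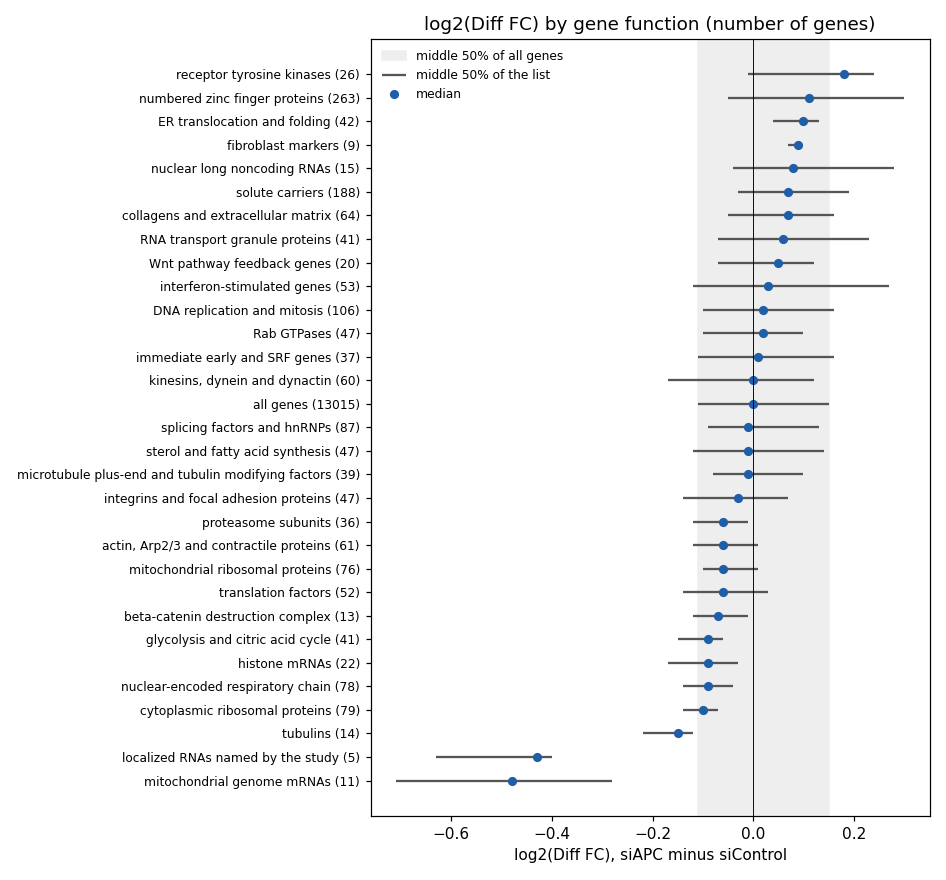
Median (point) and middle 50% (line) of log2(Diff FC) for each function list described here, with the number of genes in brackets and the middle 50% of all genes (-0.11 to 0.15) shaded. The RNAs of the mitochondrial genome (-0.48) and the localized RNAs (-0.43) lie left of the shaded range, tubulins at -0.15 just left of it, and receptor tyrosine kinases at 0.18 just right of it.

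Markers checked the labelled cell type. Of 12 fibroblast markers 9 were listed, and 8 of these had a mean log2 CPM of at least 1. The highest was Col1a1 at a mean of 13.08, and the lowest value of the 9 in any library was -3.49. Of the 9, 0 were called for log2(Diff FC), with a median of 0.09 that was 0.00 with array weights. The summed fibroblast level in Ps was 22600 to 24800 CPM in siControl and 27600 to 30100 CPM in siAPC, and in CB 37200 to 40600 CPM and 47400 to 52500 CPM (exact permutation p = 0.0286 in each fraction), and its part in the results was not tested. Of 10 epithelial markers 3 were listed, among them the keratin Krt14 at a mean of 8.32, which fibroblasts usually lack, with log2(Diff FC) of -0.18 (SE 0.11), and Cdh1 at -0.08 (SE 0.30). The summed epithelial level in CB was 268 to 354 CPM in siControl and 384 to 395 CPM in siAPC. In Ps it was 263 to 313 CPM and 305 to 342 CPM. Krt14 rose in CB by 0.31 (SE 0.08, limma adjusted p = 0.0125) and differed in Ps by 0.13 (SE 0.08, adjusted p = 0.285). The part of the epithelial markers in the results was not tested. Of blood cell markers 4 were listed, Lyz2 the highest at 4.15, and of endothelial markers 3, with means up to -0.72. Of these 3 lists 0 members were called for log2(Diff FC). The summed level of the blood cell markers was nevertheless 17.5 to 19.5 CPM in siControl Ps and 31.7 to 36.7 CPM in siAPC Ps, and 16.6 to 19.9 CPM and 28.4 to 30.4 CPM in CB. Lyz2, a lysozyme of myeloid cells, rose by 1.12 in Ps (SE 0.09, adjusted p = 2.54e-08) and by 0.93 in CB (SE 0.09, adjusted p = 3.52e-07), with log2(Diff FC) of 0.19 (SE 0.12, adjusted p = 0.981), and the part of these markers in the results was not tested.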

How the data were processed

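RNA-Seq was run on 16 libraries, 4 in each of 4 groups taken from the labels for fraction and siRNA. The authors prepared stranded libraries, aligned reads to mm10 with STAR 2.4.2a, obtained gene counts on GENCODE models through Rsubread, and applied limma-voom 3.26.1 for normalization, per the study's methods and processing notes. Whether counting used strand is not given in the sources used here, so overlapping genes and near-identical copies are uncertain. The deposited values are log2 CPM, the reads of a gene plus 0.5 relative to a scaled library size, and the authors kept expressed genes only. Inverting this gave whole reads for 100% of 208240 values (tolerance 0.01 reads). These reads supplied depths and the voom fit. A gene with 3 reads lies between -2.73 and -1.80 on the log2 scale, a floor for counting error only.

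Contrasts were fitted in limma 3.58.1 under R 4.3.3, by lmFit followed by eBayes (trend on), to the log2 CPM table as deposited. The model had a mean for every group, without a block since the study states none, and p-values were adjusted over all listed genes by Benjamini-Hochberg. The fit was tested on simulated data, and the outcome is not given here. Replicates are independent repeats per the study, and p-values measure the spread between these samples. Single library measures were compared by exact two-sided permutation tests of 4 against 4. Errors are SE of a contrast or SD over 4 libraries. Named genes were Apc, 7 genes used by the study, all at adjusted p below 0.05, and the 12 lowest and 8 highest at unadjusted p below 0.01 with a mean of at least 1, the same sign in 4 of 4 same-numbered differences and no predicted-gene or pseudogene name. In each list the 2 members with the smallest p among those with a mean of at least 1 were also named. Lists were matched by symbol. The result of 1 list is not reported here. Members, lists and rules were chosen with earlier results of these data known, and lists were not tested. Positions and 3′ UTRs came from GENCODE M21, to which 12875 genes (98.9%) matched, whereas the authors used release 4, so gene models may differ. Alternatives covered scaling, weights, trend, GC, low genes, pseudocount, blocks and single libraries.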

Additional observations from a re-analysis of the deposited data

Results flagged for a closer look

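Scd1 (-0.64), Cyb5r3 (-0.78) and 5730409E04Rik (-0.63) stood out because the test of the difference between the siRNAs itself passed the adjusted threshold of 0.05 by limma. In 124 groups of 4 values, 1 library stood far from the other three in 8, and about 1 in 20 groups is expected to do so. For genes these were Golga1 in siControl Ps replicate 2 (log2 CPM 2.79), Pkp4 in siAPC CB replicate 4 (4.41), AI480526 in siControl Ps replicate 2 (2.05), 2900052L18Rik in siControl Ps replicate 4 (-0.07) and Tcf4 in siControl CB replicate 3 (3.40). For library measures they were the mitochondrial share (1.95%) and the share of Malat1 and Neat1 (0.103%) of siControl CB replicate 3 and the ribosomal protein share of siAPC CB replicate 1 (10.8%).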

How the results depend on the processing

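The counts at an adjusted p below 0.05, 3 lower and 0 higher, were 0 lower with total scaling, with no intensity trend, with log2(CPM + 1) and without the 4 libraries that fell with GC content, 6 lower and 2 higher with quantile normalization, 10 lower with array weights, and 22 lower and 6 higher with the GC slope of each library as a covariate. At an unadjusted p below 0.05, 223 lower and 269 higher became 57 and 1320 with total scaling, 557 and 755 with array weights, 637 and 685 with the GC slope, and 366 and 450 without the 4 libraries. Leaving out each library gave 0 to 7 lower and 0 to 1 higher at the adjusted threshold, and 167 to 499 lower and 211 to 445 higher without adjustment. The cause of these differences was not tested.

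Same-numbered CB and Ps libraries had correlations of their deviations from the group means between -0.12 and 0.43 in siControl and between 0.42 and 0.62 in siAPC, over 10292 genes. Of 8 CB libraries, 5 correlated best with the Ps library of their own number. The numbers were not used as a block in the reported fit, since the study states none. The rule for naming genes matched libraries by number only to count signs. With a replicate block for siRNA and number, 1 gene, Scd1, was lower and 0 higher at the adjusted threshold, so that Cyb5r3 and 5730409E04Rik lost their calls, and with that block and the GC slope 160 were lower and 137 higher. Without adjustment the latter gave 1140 and 1104. With the number as a block over all groups, 3 were lower and 0 higher, of which Scd1 and Cyb5r3 were shared with the fit without a block and Ccnd2 was not.

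Values of named genes that changed sign were close to 0, except mt-Co1 (0.39 with quantile normalization). With total scaling they were Arpc3 (0.05), Cd68 (0.10), Cdh1 (0.06), H2afy (0.04) and Rhoa (0.11), below the shift of 0.15 of all genes. With quantile normalization they were Eif4b (0.01), Pgk1 (0.03), Rhoa (0.05) and Rps3 (0.01), and with array weights Arpc3 (0.00), Cd68 (0.03) and Cdh1 (0.14). Without the 4 libraries they were Cd68 (0.13), Cdh1 (0.07) and Rhoa (0.03). Leaving out single libraries gave ranges of -0.16 to 0.02 for Cd68, -0.27 to 0.05 for Cdh1 and -0.07 to 0.02 for Rhoa. Of the comparisons of named genes with an alternative, 2074 kept direction and side of the threshold, 60 crossed to below it, 55 to above it and 23 changed sign.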
